A study of Drosophila melanogaster with 24 samples.

Results

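The genes described are those of the Drosophila proteasome, the protease that degrades proteins tagged with ubiquitin. They were taken by name, as every gene whose symbol in the array's table begins with Prosalpha, Prosbeta, Pros and a digit, Rpn and a digit, or Rpt and a digit. This rule gave 30 genes out of 14042, read by 33 of the 17769 transcripts of the table. Of these, 24 were among the 5811 genes that passed a test for expression in at least 1 group and were compared, and 6 did not. The table uses older symbols for 11 of the 30 genes, and current RefSeq symbols are used here: its Pros25, Pros29, Pros28.1 and Pros35 are Prosalpha2, Prosalpha3, Prosalpha4 and Prosalpha6, its Pros26 is Prosbeta6, its Pros26.4, Pros45 and Pros54 are Rpt2, Rpt6 and Rpn10, its Pros28.1A and Pros28.1B are Prosalpha4T1 and Prosalpha4T2, and its Prosbeta4 is the gene now called Prosbeta7.

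The study followed whole embryos laid by brat mutant females and by control w1118 females. Total RNA of 24 samples, 3 replicates in each of 8 groups, was read on NimbleGen arrays. Each array was hybridized with a Cy3- and a Cy5-labelled sample, so that samples shared an array in pairs. brat mutant embryos came from bratfs1/Df(2L)TE37C-7 mothers and w1118 embryos from w1118 mothers. Either genotype was sampled in 4 windows counted from egg-laying, 0 to 1.5 h, then 1.5 to 3 h, then 3 to 4.5 h, and last 4.5 to 6 h, and no other agent was given. The fs1 allele is an amino acid substitution in the RNA-binding NHL domain of BRAT, so that brat mRNA is still made. The fathers of the mutant embryos were mostly bratfs1/CyO or Df(2L)TE37C-7/CyO males, so that the 2 genotypes also differ in the deficiency, in the balancer chromosome and in strain background. The mutant embryos do not hatch, and a whole embryo mixes every cell type, so that fewer cells of a type and less RNA per cell cannot be told apart.

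The 26S proteasome is built of a 20S core particle and a 19S regulatory particle. The core stacks rings of alpha subunits, which gate the entry, around rings of beta subunits, of which beta1, beta2 and beta5 carry the proteolytic sites. The 19S particle receives ubiquitylated proteins: its Rpt subunits form an ATPase ring that unfolds them, and its Rpn subunits bind ubiquitin, hold the particle together and, in Rpn11, cut the ubiquitin chain off. In the fly embryo these mRNAs are first supplied by the mother, and during the maternal-to-zygotic transition maternal mRNAs are cleared while the embryo's own genome is switched on. The comparisons therefore ask how the mRNAs of the parts of a single machine change over this transition in w1118 embryos, and how embryos lacking functional BRAT, an RNA-binding protein studied here for its part in that clearance, differ from them.

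All values below are deposited log2 signals, normalized over the 24 samples, and differences are log2 fold changes with their standard errors (SE). A value on this scale orders samples for 1 gene and says nothing about which of 2 genes is more abundant. The sample medians lay between 8.7 and 8.83, which the normalization over the samples brings about, so they say nothing about quality. Replicates of a group correlated at 0.928 to 0.968. The transcript of brat itself, which the fs1 allele does not remove, was read at 13.19 to 13.4 in brat mutants against 13.79 to 14.24 in w1118 at 0 to 1.5 h, at 13.72 to 13.94 against 13.51 to 13.89 at 1.5 to 3 h, at 14.05 to 14.18 against 13.98 to 14.27 at 3 to 4.5 h, and at 14.18 to 14.29 against 14.22 to 14.4 at 4.5 to 6 h. The ranges were separate at 0 to 1.5 h, lower in brat mutants. They overlapped at the later times, where the transcript does not check the labels. None of 7 testis genes and none of 3 adult yolk protein genes passed the expression test in any group, and 8 of 8 maternal mRNAs passed it at 0 to 1.5 h in both genotypes.

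In w1118 embryos most mRNAs of the 19S particle fell at the first step, and the mRNAs of the 20S core fell at the second. In brat mutant embryos 19S mRNAs fell at the same early step, and some core mRNAs fell at the second. At 4.5 to 6 h the genes that differed between the genotypes were core genes, higher in brat mutants than in w1118, and 19S genes, lower in them.

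**Figure D1:**
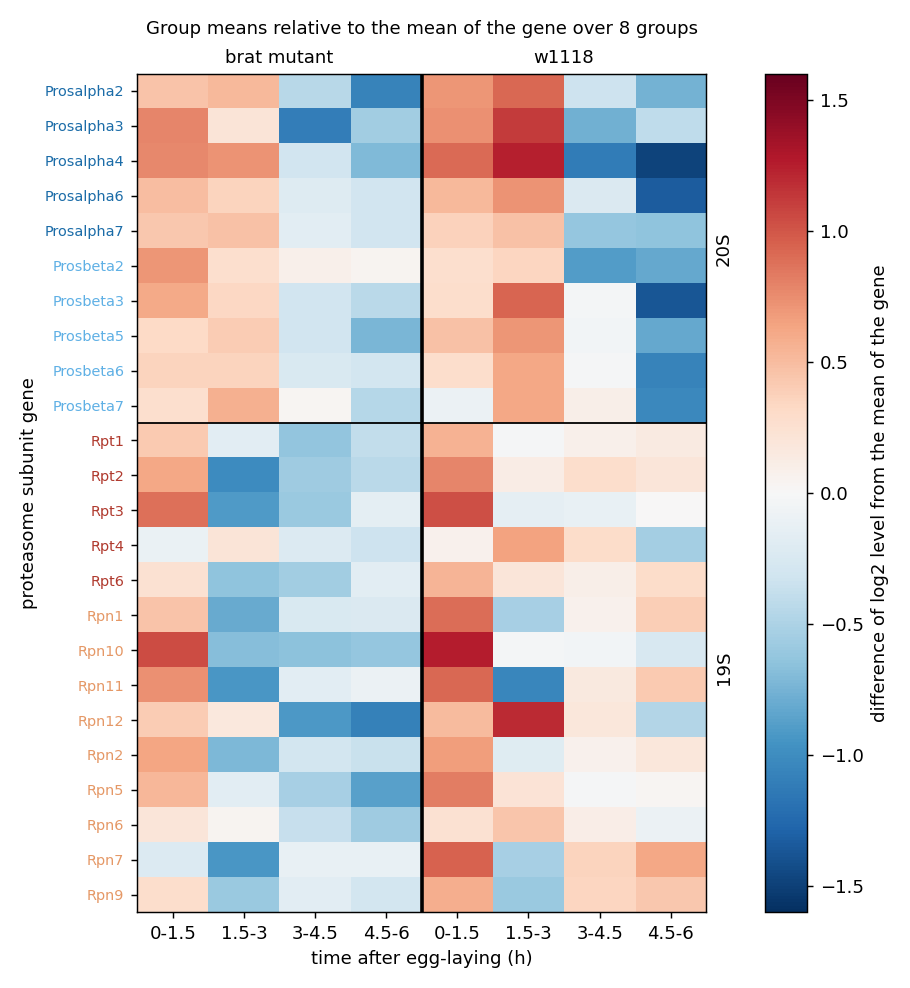
Mean log2 level of each of the 24 expressed proteasome genes in the 8 groups, drawn as the difference from the mean of the gene over the groups (colour; red above it, blue below it), with brat mutant embryos left of w1118 embryos and time after egg-laying in h along each side. The 10 genes of the 20S core are above the line and the 14 genes of the 19S particle below it; in w1118 9 of 10 core genes lie below their own mean at 3 to 4.5 h, all but Prosbeta7, and 10 of 10 do at 4.5 to 6 h, while 14 of 14 genes of the 19S particle lie above theirs at 0 to 1.5 h.

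Between 0 to 1.5 h and 1.5 to 3 h in w1118 embryos, 14 of the 24 genes changed, 4 upwards and 10 downwards at a false discovery rate of 5% (limma with Benjamini-Hochberg adjustment over all 5811 genes). Over all genes tested, 19.5% were higher and 25.7% were lower in this step. All 10 that fell belong to the 19S particle, in which 10 of 14 genes fell, 2 rose and the median change was -0.77, beside a median of 0.06 over all genes. In the 20S core none of 10 genes fell, 2 rose and the median was 0.28. The rises depend on the scaling: with each sample set to equal mean levels of 81 ribosomal protein genes, the median over all genes in this step was -0.25, 0 proteasome genes rose and 11 fell, and the core's median was -0.02, while the 19S median was -1.08. With samples set to equal medians, a setting chosen after the data were seen, 6 rose and 8 fell.

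The deepest fall of the step was that of Rpn11, the subunit that cleaves ubiquitin chains from the substrate. Rpn11 was read at 10.87, 11.04 and 11.12 at 1.5 to 3 h, against 12.70, 13.11 and 13.09 at 0 to 1.5 h. The change was -1.95 (SE 0.24, adjusted p = 8.93e-07), and the lowest early sample lay far above the highest later one. Rpn7, a scaffold subunit of the 19S lid, was read at 11.39, 11.66 and 11.64 at 1.5 to 3 h, against 12.92, 12.96 and 13.23 at 0 to 1.5 h. Its change was -1.47 (SE 0.22, adjusted p = 1.78e-05), again with no overlap between the samples of the 2 times. The other 19S genes that fell were Rpn1 (-1.42) and Rpn2 (-0.87), the large scaffold proteins of the base, Rpn9 (-1.17) and Rpn5 (-0.59) of the lid, the ubiquitin receptor Rpn10 (-1.28), and the ATPases Rpt3 (-1.17), Rpt2 (-0.66) and Rpt1 (-0.57).

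The 2 largest rises of the step came from opposite parts of the machine. Prosbeta7, a non-catalytic core subunit, was read at 13.09, 13.32 and 13.68 at 1.5 to 3 h, against 12.44, 12.83 and 12.71 at 0 to 1.5 h (change 0.70, SE 0.20, adjusted p = 0.00596). Rpn12, a lid subunit that joins late in assembly of the particle in yeast, was read at 12.62, 13.19 and 13.27 at 1.5 to 3 h, against 12.48, 12.28 and 12.24 at 0 to 1.5 h (0.69, SE 0.25, adjusted p = 0.0295). Neither gene's samples overlapped between the times. The other 2 rises were Prosbeta3 (0.65) of the core and the ATPase Rpt4 (0.58).

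**Figure D2:**
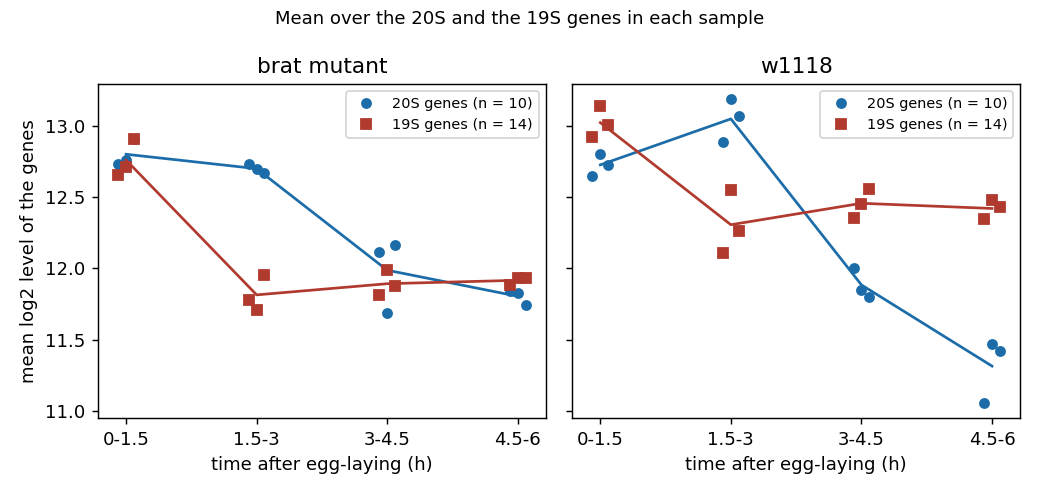
Mean log2 level over the 10 expressed 20S genes (circles) and over the 14 expressed 19S genes (squares) in each of the 3 samples per group, with lines through the group means, against time after egg-laying in h, for brat mutant embryos (left) and w1118 embryos (right). In w1118 the 19S mean falls between the first and second time and the 20S mean after the second time; the height of one line against the other has no meaning, because levels of different genes cannot be compared on this scale.

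From 1.5 to 3 h to 3 to 4.5 h in w1118 embryos the order of the particles turned round. All 10 genes of the core fell, with a median of -1.03, while in the 19S particle 4 genes rose, 2 fell and the median was 0.06. Together that made 4 genes higher and 12 lower of 24, beside 21.8% higher and 25% lower over all genes tested and a median of -0.02. The 3 scalings left the core's fall in place, with 10, 10 and 9 of 10 genes called in the scaling as deposited, by ribosomal protein genes and by sample medians.

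Prosalpha4, an alpha ring subunit, had the largest fall. It was read at 10.47, 10.11 and 9.51 at 3 to 4.5 h, against 12.44, 12.66 and 12.07 at 1.5 to 3 h (change -2.36, SE 0.39, adjusted p = 4.48e-05). Prosalpha3, its neighbour in the ring, was read at 10.74, 9.38 and 9.60 at 3 to 4.5 h, against 11.79, 12.06 and 11.56 at 1.5 to 3 h (-1.90, SE 0.32, adjusted p = 6.06e-05). The samples of the 2 times did not overlap for either gene, although those of Prosalpha3 spread over more than 1 log2 unit at the later time. The other core genes fell by less: Prosalpha2 (-1.25), Prosbeta2 (-1.23), Prosalpha7 (-1.09), Prosalpha6 (-0.96), Prosbeta3 (-0.96), Prosbeta5 (-0.75), Prosbeta6 (-0.65) and Prosbeta7 (-0.53).

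Of the 10 19S genes that had fallen at the first step, 4 rose at the second, while Rpn10 and Rpt3, which had fallen as far as Rpn9 or further, were not called. Rpn11 was read at 12, 12.28 and 12.35 at 3 to 4.5 h, against 10.87, 11.04 and 11.12 at 1.5 to 3 h (change 1.20, SE 0.24, adjusted p = 0.000296). Rpn9, a lid subunit, was read at 12.31, 12.99 and 12.84 at 3 to 4.5 h, against 11.62, 11.89 and 11.82 at 1.5 to 3 h (0.94, SE 0.21, adjusted p = 0.00103). The samples of the later time all lay above those of the earlier time for both. Rpn7 (0.88) and Rpn1 (0.61) rose too, and all 4 of these genes had fallen in the step before. The lid genes Rpn12 (-1.01) and Rpn6 (-0.34) fell. The Rpn6 call was kept in 4 of 9 alternative settings and in 0 of 6 fits without 1 replicate. Each such fit over time left out 1 replicate number of 1 genotype at all 4 times.

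The last step in w1118, from 3 to 4.5 h to 4.5 to 6 h, lowered 6 of 24 genes and raised 0, beside 5.9% higher and 4.22% lower over all genes. No proteasome gene was higher at an unadjusted p under 0.05 either, and limma with a mean-variance trend made 0 calls upwards. Of the 6, 5 belong to the core and 4 of them to its beta rings. Prosbeta3, a beta subunit without a proteolytic site, was read at 10.33, 11.19 and 11.06 at 4.5 to 6 h, against 12.24, 12.16 and 12.18 at 3 to 4.5 h (change -1.33, SE 0.22, adjusted p = 0.000398). Prosbeta7 was read at 11.53, 11.82 and 11.82 at 4.5 to 6 h, against 12.60, 12.95 and 12.96 at 3 to 4.5 h (-1.12, SE 0.20, adjusted p = 0.00076). Both sets of samples were separate. Prosalpha6 (-1.09), Prosbeta6 (-1.05) and Prosbeta5 (-0.77) were the other core genes that fell, and the ATPase Rpt4 (-0.83) was the only 19S gene that did.

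Over the 3 steps, 23 of 24 genes changed at least once in w1118, beside 71.5% of all genes tested, and the ATPase Rpt6 did not. Of the 23, 8 changed in both directions: Rpn1, Rpn7, Rpn9 and Rpn11 fell and then rose, and Prosbeta3, Prosbeta7, Rpn12 and Rpt4 rose and then fell. The counts rest in part on single replicates, each left out at all 4 times. Without w1118 replicate 3, 7 genes were called in place of 14 at the first step and 10 in place of 16 at the second, and without w1118 replicate 1 or 2, 3 in place of 6 at the last step.

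In brat mutant embryos the first step also lowered 19S genes. Of 24 genes 11 fell and 0 rose from 0 to 1.5 h to 1.5 to 3 h, beside 13.9% higher and 20.8% lower over all genes tested; at an unadjusted p under 0.05 also none was higher, and limma with a mean-variance trend called 0 upwards. All 11 are 19S genes, out of 14, and they include each of the 10 that fell in w1118, a share of 10 of 11 here and 10 of 10 there. The eleventh was Rpt6, and Rpn12 and Rpt4, which rose in w1118, were not called in brat mutants. The changes of the 2 genotypes share no samples, but both were tested in 1 fit of 24 samples with a shared spread. Their calls are therefore not independent. Rpn11 was read at 11.01, 10.58 and 11.76 at 1.5 to 3 h, against 12.85, 12.49 and 13.02 at 0 to 1.5 h (change -1.67, SE 0.24, adjusted p = 1.31e-05). The fall of Rpt2 was -1.63 (SE 0.24), of Rpt3 -1.78 (SE 0.28) and of Rpn10 -1.71 (SE 0.34). In the core 0 of 10 genes passed in either direction and the median was -0.03, and 2 fell under the ribosomal protein scaling.

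At the second step in brat mutants, 7 genes fell and 2 rose, beside 6.04% higher and 9.22% lower over all genes. The falls took in 5 of 10 core genes, namely Prosalpha2 (-0.95), Prosalpha3 (-1.31), Prosalpha7 (-0.64), Prosbeta5 (-0.71) and Prosbeta6 (-0.59), with Rpn12 (-1.08) and Rpn6 (-0.41) of the lid. The Rpn6 call was kept in 3 of 9 alternative settings and in 0 of 6 fits without 1 replicate number of 1 genotype. Each of the 7 was also among the 12 that fell in w1118, and the 2 that rose, Rpn7 (0.81) and Rpn11 (0.77), were among the 4 that rose there. The 10 core genes all had a fitted change below 0, with a median of -0.63, beside 3060 of all 5811 genes and a median of -0.03. The calls of this step rest on the spread shared with the other groups: with the 6 samples of the 2 times alone, or without brat replicate 2, 0 of the 9 remained, and without brat replicate 1, 1 did.

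From 3 to 4.5 h to 4.5 to 6 h in brat mutants 0 of 24 proteasome genes passed limma's test, and also 0 with a mean-variance trend, while 4 had an unadjusted p under 0.05. Over all genes tested 0.533% were higher and 0.637% lower. The core's median was -0.13 and that of the 19S genes 0.01. The core mean per sample lay between 11.74 and 11.84 in brat mutants at 4.5 to 6 h and between 11.05 and 11.47 in w1118, whereas the 19S mean per sample lay between 11.88 and 11.94 in brat mutants and between 12.35 and 12.48 in w1118.

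Set directly against w1118 at the same time, brat mutants at 0 to 1.5 h had 1 proteasome gene lower and 0 higher, beside 4.97% higher and 3.94% lower over all genes tested; 1 gene was higher at an unadjusted p under 0.05, and limma with a mean-variance trend and Significance Analysis of Microarrays (SAM) each called 0 higher and 1 lower. The gene was Rpn7. It was read at 11.68, 11.94 and 12.01 in brat mutants, against 12.92, 12.96 and 13.23 in w1118, so that every mutant sample lay below every control sample. The difference was -1.16 (SE 0.18, adjusted p = 0.00341). It kept its call in 10 of 10 alternative settings and in each of 6 fits that left out 1 sample, with values from -1.22 to -1.06. The fitted difference was below 0 for 14 of 14 genes of the 19S particle at this time, with a median of -0.17, and above 0 for 6 of 10 core genes. It was below 0 for 3093 of all 5811 genes, with a median of -0.03. With samples set to equal medians, 2 of the 14 were above 0 and their median was -0.11. These genes were read in the same 6 samples, so their signs are not independent.

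At 1.5 to 3 h 3 genes were lower in brat mutants and 0 higher, beside 4.15% higher and 3.55% lower over all genes. None was higher at an unadjusted p under 0.05, and limma with a mean-variance trend called 6 genes, all of them lower. Rpn12 was read at 12.20, 11.88 and 11.91 in brat mutants, against 12.62, 13.19 and 13.27 in w1118 (-1.03, SE 0.23, adjusted p = 0.0319). The ATPase Rpt6 was read at 13.65, 13.38 and 13.41 in brat mutants, against 14.45, 14.44 and 14.08 in w1118 (-0.84, SE 0.20, adjusted p = 0.0369). Prosalpha3 of the alpha ring was read at 10.84, 11.16 and 10.66 in brat mutants, against 11.79, 12.06 and 11.56 in w1118 (-0.92, SE 0.22, adjusted p = 0.0384). The samples of the 2 genotypes were separate for each of the 3. The fitted difference was below 0 for 23 of the 24 genes, with a median of -0.41, beside -0.04 over all genes and 3134 of 5811 genes below 0.

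The plot of genotype differences shows this shift at 1.5 to 3 h and its later split between the particles. The 3 calls were sensitive to single samples and to the model. With dye as a covariate 0 of the 3 remained and another proteasome gene was called, with the replicate number as a block Prosalpha3 alone remained, and leaving out 1 sample left 0 or 1. The dye is partly tied to the genotype here, since brat replicates 1 and 3 and w1118 replicate 2 carried the same label, and its part in the difference was not tested.

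**Figure D3:**
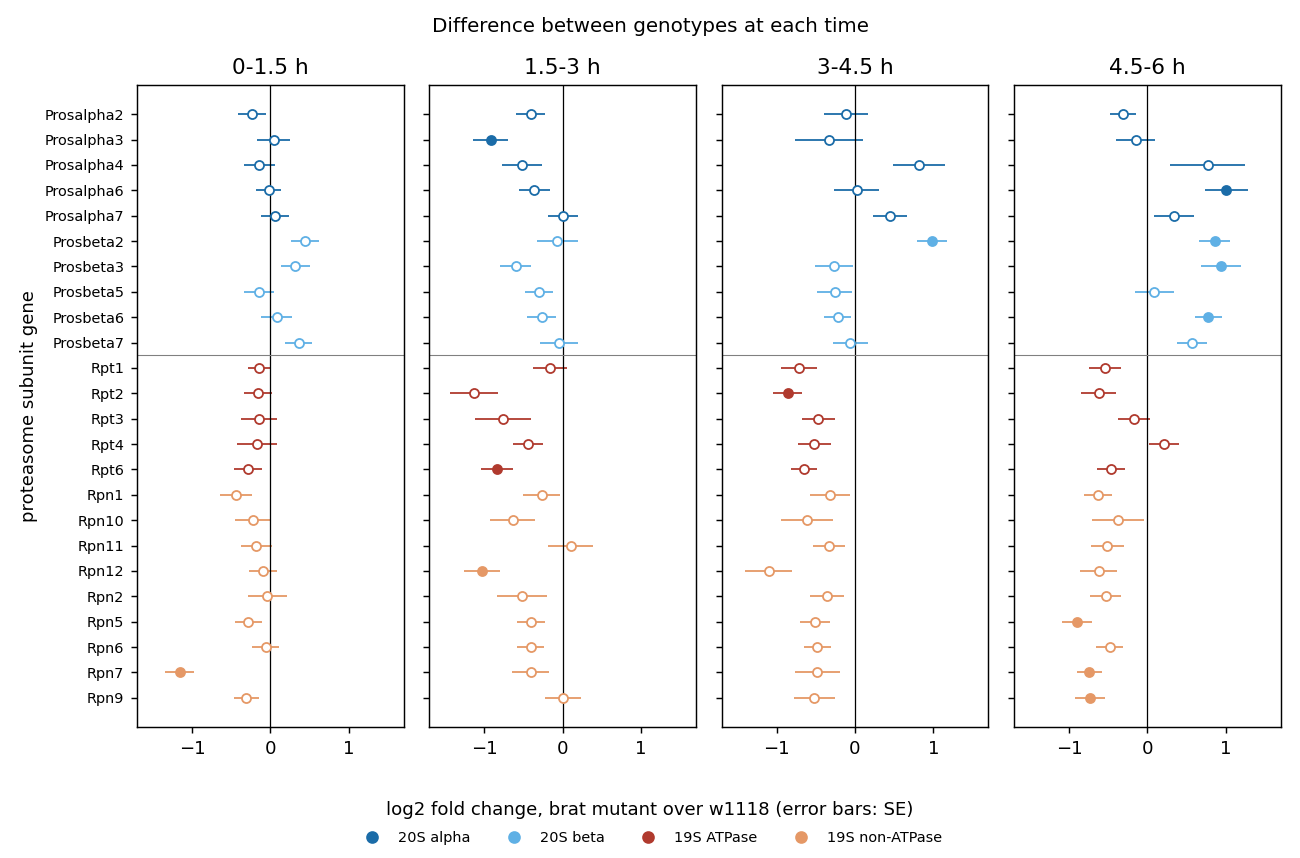
Log2 fold change of brat mutant over w1118 embryos (points) with its standard error (bars) for each of the 24 expressed proteasome genes at 4 times after egg-laying; filled points passed the false discovery rate of 5% and colours mark the class of subunit. At 1.5 to 3 h 23 of 24 points lie left of 0, beside 3134 of all 5811 genes tested. At 4.5 to 6 h 8 of 10 core genes (above the line) lie right of it. At that time 13 of 14 genes of the 19S particle lie left, beside 3358 of all 5811 genes.

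At 3 to 4.5 h 1 gene was higher and 1 lower, beside 2.17% higher and 1.48% lower over all genes. Prosbeta2, which carries the trypsin-like site, was read at 13.68, 13.59 and 13.27 in brat mutants, against 12.61, 12.47 and 12.53 in w1118 (0.98, SE 0.19, adjusted p = 0.0331). Rpt2, an ATPase that helps to open the core's gate in yeast, was read at 12.67, 12.60 and 12.95 in brat mutants, against 13.51, 13.62 and 13.66 in w1118 (-0.86, SE 0.18, adjusted p = 0.0463). Neither gene's samples overlapped between the genotypes, but neither call was kept in any of 6 fits that left out 1 sample. With samples set to equal medians the split was 1 higher and 0 lower. For the 19S genes all 14 fitted differences were below 0, with a median of -0.51, and for the core genes 6 of 10 were, with a median of -0.09. Of all 5811 genes tested, 3189 were below 0, with a median of -0.05.

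At 4.5 to 6 h 7 genes differed, 4 higher and 3 lower in brat mutants, beside 6.3% higher and 5.68% lower over all genes tested. The 4 that were higher are all core genes, out of 10, and the 3 that were lower are all 19S genes, out of 14. Prosbeta6, a beta subunit without a proteolytic site, was read at 12.57, 12.48 and 12.56 in brat mutants, against 11.96, 11.79 and 11.54 in w1118 (0.78, SE 0.17, adjusted p = 0.0247). Prosbeta2 was read at 13.29, 13.64 and 13.51 in brat mutants, against 12.31, 12.84 and 12.70 in w1118 (0.86, SE 0.20, adjusted p = 0.028). The samples of the genotypes were separate for both. Prosalpha6, of the alpha ring, was read at 12.16, 12.47 and 12 in brat mutants, against 10.77, 11.05 and 11.77 in w1118 (1.01, SE 0.27, adjusted p = 0.0458). Prosbeta3 was read at 11.76, 11.60 and 12.04 in brat mutants, against 10.33, 11.19 and 11.06 in w1118 (0.94, SE 0.25, adjusted p = 0.0467). These last 2 genes had the widest spread among w1118 samples, and each lay just inside the threshold.

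The 3 lower genes are subunits of the lid. Rpn5 was read at 12.41, 12.63 and 12.10 in brat mutants, against 13.22, 13.37 and 13.26 in w1118 (-0.90, SE 0.19, adjusted p = 0.0193). Rpn7 was read at 11.88, 11.93 and 12.09 in brat mutants, against 12.68, 12.78 and 12.66 in w1118 (-0.74, SE 0.16, adjusted p = 0.0223). Rpn9 was read at 11.84, 12.21 and 12.17 in brat mutants, against 12.82, 12.60 and 12.98 in w1118 (-0.73, SE 0.19, adjusted p = 0.0406). Rpn5 kept its call in 10 of 10 alternative settings, Rpn7 in 8 and Rpn9 in 4. In the 6 fits that left out 1 sample, they kept it in 2, 1 and 0. Among the core genes, Prosbeta6 kept its call in 7 of 10 settings, Prosbeta2 in 8, Prosalpha6 in 6 and Prosbeta3 in 5. Without 1 sample these 4 kept it in 1, 2, 1 and 1 of 6 fits. The median difference was 0.67 over the core genes and -0.54 over the 19S genes, beside -0.09 over all genes. With dye as a covariate the counts were 0 higher and 2 lower, and leaving out 1 sample left 1 or 2 of the calls.

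**Figure D4:**
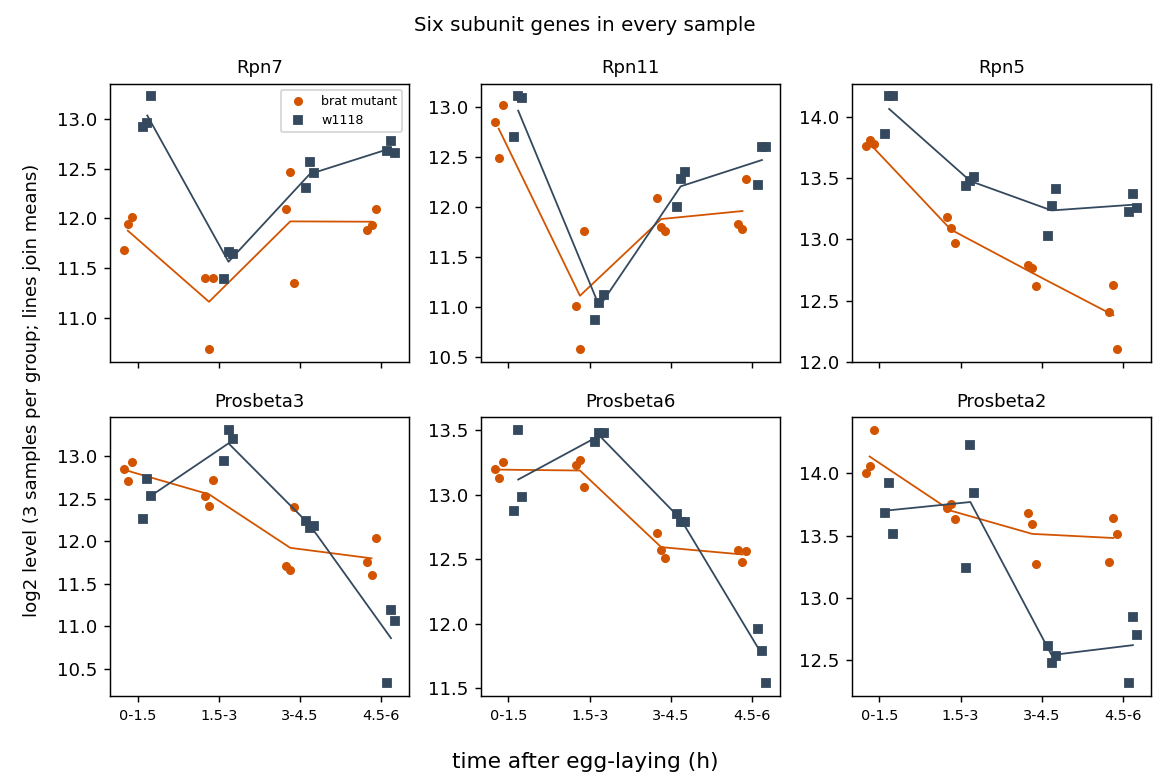
Log2 level of 6 proteasome genes in every sample against time after egg-laying in h (brat mutant, circles, drawn left of w1118, squares; 3 samples per group; lines join group means). At 4.5 to 6 h the brat mutant samples of Prosbeta3, Prosbeta6 and Prosbeta2 lie above all w1118 samples, and those of Rpn7 and Rpn5 lie below them.

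Over the 4 times, 11 of the 24 genes differed between the genotypes at least once, beside 24.2% of all genes tested, and 2 did so at more than 1 time. Rpn7 was lower at 0 to 1.5 h and at 4.5 to 6 h, and Prosbeta2 was higher at 3 to 4.5 h and at 4.5 to 6 h. No gene was called in opposite directions at different times. The 13 genes never called were Prosalpha2, Prosalpha4, Prosalpha7, Prosbeta5, Prosbeta7, Rpt1, Rpt3, Rpt4, Rpn1, Rpn2, Rpn6, Rpn10 and Rpn11.

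Whether the difference between genotypes itself changed with time was tested as an interaction. From 0 to 1.5 h to 1.5 to 3 h 0 of 24 genes passed, with 6 at an unadjusted p under 0.05 and 0 under limma with a mean-variance trend, beside 0.688% higher and 0.774% lower over all genes. From 1.5 to 3 h to 3 to 4.5 h 1 gene passed, Prosbeta2, whose difference was 1.04 higher at the later time (SE 0.29, adjusted p = 0.0408), beside 2.77% higher and 2.82% lower. The call was kept in 6 of 9 alternative settings and in 1 of 6 fits without 1 replicate number of 1 genotype. From 3 to 4.5 h to 4.5 to 6 h 0 passed, with 5 at an unadjusted p under 0.05 and 0 with the trend, beside 0% higher and 0.0172% lower.

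A comparison of 4.5 to 6 h with 1.5 to 3 h was added after the differences at each time had been seen, so its result is not independent of them. In it 4 genes passed, all in the core and all with a difference that was higher at 4.5 to 6 h, beside 5.13% higher and 5.39% lower over all genes. They were Prosbeta3 (1.54, SE 0.31, adjusted p = 0.00346), Prosbeta6 (1.05, SE 0.22, adjusted p = 0.00448), Prosalpha6 (1.37, SE 0.35, adjusted p = 0.0145) and Prosbeta2 (0.93, SE 0.29, adjusted p = 0.0465). Prosbeta3 and Prosbeta6 kept their calls in 9 of 9 alternative settings and in 6 of 6 fits without 1 replicate number of 1 genotype. Prosalpha6 kept its call in 9 of 9 settings and in 2 of 6 such fits, and Prosbeta2 in 4 of 9 settings and 1 of 6 fits. Without brat replicate 1 or 3, or w1118 replicate 2, 2 of the 4 calls were left. The interaction was above 0 for 10 of 10 core genes, with a median of 0.85, and for 6 of 14 genes of the 19S particle, with a median of -0.04. It was above 0 for 2781 of all 5811 genes, with a median of -0.03.

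Genes listed as markers of embryonic age also differed between the genotypes at the same times. Over all genes tested, 4.97%, 4.15%, 2.17% and 6.3% were higher in brat mutants at the 4 times. The shares lower were 3.94%, 3.55%, 1.48% and 5.68%. Of 9 early zygotic genes, the first genes that the embryo transcribes, 3 were higher in brat mutants at 0 to 1.5 h, with a median of 0.57, and their mean per sample ran from 9.20 to 9.89 in brat mutants and from 8.64 to 9.09 in w1118. At 1.5 to 3 h 3 of the 9 were lower, with sample means of 11.34 to 11.54 in brat mutants and 11.98 to 12.17 in w1118. Of 7 later embryonic genes that were expressed, 2 were higher in brat mutants at 0 to 1.5 h (Ubx and elav) and 1 at 1.5 to 3 h (Mhc). At 3 to 4.5 h 0 were higher, and at 4.5 to 6 h 2 were (Mhc and Mlc2). By limma's test 0 were lower at any time. The median difference was 0.47, 0.86, 1.15 and 0.77 at the 4 times, with 7, 7, 5 and 4 of the 7 above 0. At 4.5 to 6 h the means of elav (11.97 against 12.12), Ubx (11.53 against 11.8) and prd (8.27 against 8.37) were lower in brat mutants than in w1118. The 7 include prd, which was not a late gene here: its w1118 means were 8.37, 10.73, 9.98 and 8.37, highest at 1.5 to 3 h. At 4.5 to 6 h 2 of the early zygotic genes were lower, with sample means of 10.01 to 10.32 in brat mutants and 10.51 to 10.74 in w1118. Of 8 maternal mRNAs, 1 was lower in brat mutants at 0 to 1.5 h, 1 was higher and 2 lower at 1.5 to 3 h, 2 were higher at 3 to 4.5 h (osk and smg), and 2 were higher and 2 lower at 4.5 to 6 h, with sample means of 11.11 to 11.42 in brat mutants and 10.66 to 11.32 in w1118. The paper assigns BRAT a part in the clearance of maternal mRNAs. It also proposes that more of the genome activator Zelda raises zygotic genes in brat mutants. Maternal and early zygotic mRNAs therefore do not mark age alone between these genotypes. The part of embryonic age in the proteasome differences was not tested.

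The proteolytic sites lie in beta1, beta2 and beta5, and their mRNAs shared a fall in w1118 at the second step. Its fitted size varied, and differences between the 3 genes were not tested. Prosbeta1, listed under an older name that lies outside the name rule, was read at 10.43, 9.18 and 11.28 at 3 to 4.5 h, against 12.14, 12.24 and 12.84 at 1.5 to 3 h (change -2.11, SE 0.38, adjusted p = 0.000113). Prosbeta2 was read at 12.61, 12.47 and 12.53 at 3 to 4.5 h, against 13.24, 14.23 and 13.84 at 1.5 to 3 h (-1.23, SE 0.21, adjusted p = 5.59e-05 by limma). Prosbeta5, the subunit with the chymotrypsin-like site, was read at 12.90, 13.02 and 12.65 at 3 to 4.5 h, against 13.53, 13.70 and 13.59 at 1.5 to 3 h (-0.75, SE 0.20, adjusted p = 0.00484). Samples of the 2 times were separate for all 3. In brat mutants Prosbeta5 fell by 0.71 at this step (SE 0.20, adjusted p = 0.0242 by limma). Prosbeta1 had a larger fitted change with a wider SE, which did not pass (-0.87, SE 0.38, adjusted p = 0.122). Prosbeta2 changed by -0.19 (SE 0.21, adjusted p = 0.581). At 4.5 to 6 h Prosbeta1 was read at 11.02, 10.46 and 11.21 in brat mutants, against 9.41, 9.66 and 10.66 in w1118, which did not pass the threshold (0.99, SE 0.34, adjusted p = 0.0944).

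The genes left untested are the duplicated copies that the fly carries beside the standard subunits, several of which are known from the testis. Prosalpha3T, Prosalpha4T1, Prosalpha4T2, Prosalpha6T, Prosbeta5R1 and Rpt3R stayed between 7.40 and 8.90 in all 24 samples, and passed the expression test in 0 of 8 groups. Prosbeta5R1, the copy of the catalytic beta5, ran from 7.69 to 8.62 over all samples, and its group means spanned 0.55. The copies of beta2 and beta5 with other names in the table did the same: Prosbeta2R1 ran from 7.55 to 8.82, Prosbeta2R2 from 7.22 to 8.83 and Prosbeta5R2 from 7.66 to 8.77. These levels lie below the mean of all transcripts, which was 9.54 to 9.58 per sample. By contrast the group means of the 24 expressed genes spanned between 1.02 for Rpn6 and 2.72 for Prosalpha4.

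The name rule misses 17 proteasome genes and gene copies that the table lists under other names. They were read on the same arrays and give no independent support to the changes above. Of the 17, 8 were expressed. Over all genes tested, 25.7% fell and 19.5% rose at the first step in w1118, and 25% fell and 21.8% rose at the second. At the first step in brat mutants 20.8% fell and 13.9% rose. At the first step in w1118 all 4 of the 19S genes among them fell: Rpn8 (-1.55), Rpt5 (-1.41), Rpn3 (-1.21) and Rpn13 (-0.61), while the core gene Prosalpha5 rose (0.93) and 0 of 3 core genes fell. In brat mutants the same 4 fell, with changes of -1.32 for Rpn8, -1.46 for Rpt5, -1.11 for Rpn3 and -0.99 for Rpn13. At the second step in w1118 all 3 core genes fell, Prosbeta1 (-2.11), Prosalpha5 (-2.08) and the gene now called Prosbeta4 (-0.99). Of the 19S genes Rpn3 (0.59) and Rpt5 (0.78) then rose and Rpn13 (-0.70) fell. Prosalpha1R, a close copy of Prosalpha1 whose reads may not be its own, fell at the second step (-1.05) and at the last (-0.96).

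Against w1118, 2 of these 8 genes differed at 4.5 to 6 h, both of the 19S particle and both lower. Over all genes tested, 6.3% were higher and 5.68% lower at this time. Rpn13, a ubiquitin receptor, was read at 9.98, 10.69 and 10.17 in brat mutants, against 11.43, 11.44 and 11.20 in w1118 (-1.08, SE 0.22, adjusted p = 0.0168). Rpn8, the partner of Rpn11, was read at 12.41, 12.28 and 12.08 in brat mutants, against 12.94, 13.06 and 12.90 in w1118 (-0.71, SE 0.17, adjusted p = 0.0303). The samples of the genotypes were separate for both. The 3 core genes had fitted differences above 0 at this time, with a median of 0.36, and none passed.

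Other genes of the ubiquitin-proteasome pathway were followed from a list: 8 assembly factors and regulators, 5 transcription factors, 12 genes of ubiquitin and its conjugation, 3 of the segregase that extracts substrates, and 12 of ubiquitin ligases. Between the genotypes few of these 40 were called at any time, beside 24.2% of all genes tested. The exception was crc, the fly homolog of the stress transcription factor ATF4, which was higher in brat mutants at each of the 4 times, by 1.20 (SE 0.16, adjusted p = 0.00181), 1.20 (SE 0.18, adjusted p = 0.00966), 0.98 (SE 0.18, adjusted p = 0.031) and 0.81 (SE 0.16, adjusted p = 0.0151). At 4.5 to 6 h it was read at 14.13, 14.17 and 14.08 in brat mutants, against 13.28, 13.24 and 13.43 in w1118, with no overlap. The 2 others were CG9461, an F-box gene, lower at 0 to 1.5 h (-0.82), and CG4673, which encodes the segregase cofactor Npl4, lower at 4.5 to 6 h (-0.93). By limma's test no assembly factor and no gene of ubiquitin conjugation passed at any of the 4 times.

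Over time in w1118 the pathway moved in both directions. At the first step 2 of 8 assembly factors and regulators rose and 1 fell, and 2 of 5 transcription factors rose and 1 fell. In ubiquitin conjugation 1 of 12 rose and 2 fell, in the segregase 0 of 3 rose and 2 fell, and among ligases 5 of 12 rose and 6 fell. The shares over all genes were 19.5% and 25.7%. The genes below were named after their values were seen, and Pomp passed the expression test in 3 of 8 groups. Pomp, the chaperone that matures the core particle, rose at the first step and fell at the second, as Prosbeta3 and Prosbeta7 did: it was read at 10.95, 10.25 and 11.37 at 1.5 to 3 h, against 10.08, 9.63 and 10.17 at 0 to 1.5 h (0.90, SE 0.30, adjusted p = 0.0176), and its change from there to 3 to 4.5 h was -1.17 (SE 0.30, adjusted p = 0.00285). In brat mutants Pomp fell at the second step (-0.90, SE 0.30, adjusted p = 0.0453). The gene cnc, whose product is the fly homolog of the factors that induce proteasome genes in mammals under proteasome inhibition, fell at both of these steps, with changes of -0.76 and -0.61 in brat mutants and of -0.72 and -0.97 in w1118. Its inhibitor Keap1 rose at the first step, by 0.84 in brat mutants (SE 0.21) and by 1.72 in w1118 (SE 0.21). Uba1, the enzyme that activates ubiquitin, fell at that step, with changes of -0.85 in brat mutants and -1.23 in w1118.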

How the data were processed

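Total RNA of 24 samples (3 independent replicates of 2 genotypes at 4 times) was hybridised to NimbleGen arrays, with brat mutant replicates 1 and 3 in Cy3 and replicate 2 in Cy5, and w1118 in the other dye. Each array carried a Cy3- and a Cy5-labelled sample, and the main fits did not model which samples shared an array. The deposited log2 values were made by the authors: NimbleScan quantified the spots, and ArrayStar applied quantile normalization (RMA) across the 24 samples. For background correction and annotation release the sources used here give nothing. The number of samples limits the precision.

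Transcripts of a symbol were averaged, and 6 transcripts without a value were left out. The table held 0 columns outside the samples. A gene was tested if, in at least 1 of 8 groups, its level exceeded the sample's mean over all transcripts (limma, false discovery rate 5%). Genotypes were compared within a time on the 6 samples of the 2 groups, and times and interactions in 1 fit of 24 samples, with limma 3.58.1 in R 4.3.3 and Benjamini-Hochberg adjustment over 5811 genes; limma took the place of the SAM of the methods, which was run as an alternative. With 3 against 3 samples the lowest exact permutation p is 0.1, so no such test was used.

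Members and gene lists were chosen with earlier results of these data known. Named were members that passed between genotypes or in an interaction, the 2 largest rises and falls of each w1118 step, and the catalytic subunits with their copies; other genes were named after their values were seen. The fits were tested on simulated data. Deviations of same-numbered samples from their group means correlated above 0.1 in all 3 pairs for w1118 at 3 to 4.5 h against 1.5 to 3 h (0.24, 0.13 and 0.18). In the other 5 steps over time all 3 correlations were above 0 but at least 1 was below 0.1, and between genotypes they ran from -0.09 to 0.18. Same-numbered samples of a genotype share a dye. Alternatives covered the samples in the fit, SAM, dye, replicate block, variance trend, expression filter, transcripts, scaling and single replicates. Leaving out a replicate took 1 sample from a comparison between genotypes, and that replicate at every time from the fits of steps and interactions. Median scaling, current symbols and the interaction of 4.5 to 6 h with 1.5 to 3 h were added after the data were seen.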

Additional observations from a re-analysis of the deposited data

Results flagged for a closer look

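The difference between brat mutants and w1118 changed with time for 4 core genes by the test of the interaction. Between 4.5 to 6 h and 1.5 to 3 h, a comparison added after the data were seen, it was higher at the later time by 1.54 for Prosbeta3, by 1.05 for Prosbeta6 (Pros26 in the table), by 1.37 for Prosalpha6 (Pros35 in the table) and by 0.93 for Prosbeta2. Between 3 to 4.5 h and 1.5 to 3 h it was higher by 1.04 for Prosbeta2. With 3 samples in a group, no test for single outlying samples was made.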

How the results depend on the processing

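Across the settings tried, no result changed direction among called genes. For brat mutants against w1118, the count of 3 at 1.5 to 3 h was 1 with dye as a covariate, a gene not among the 3, 1 of the 3 with genes above the median gene or with ribosomal protein scaling, 6 with a variance trend, including the 3, and 0 without the expression filter. The count of 2 at 3 to 4.5 h was 7 with all 24 samples in the fit, 4 by SAM, 6 with the trend, 1 with single transcripts or median scaling and 0 with dye, without the filter or above the median gene. The count of 7 at 4.5 to 6 h was 2 with dye, 13 with the trend, 1 without the filter and 4 above the median gene. The count of 9 at the second brat step was 0 on the compared groups alone and 4 without the filter, and the count of 1 for the interaction of 3 to 4.5 h with 1.5 to 3 h was 0 under these settings and above the median gene. The median over the proteasome genes became -0.29 at 3 to 4.5 h with median scaling (-0.34 as deposited), -0.24 at 4.5 to 6 h with genes taken by current symbol (-0.34), -0.23 at the first w1118 step with ribosomal protein scaling (0.08), and, at the first brat step, -0.35 with single transcripts, -0.77 with ribosomal protein scaling and -0.37 with median scaling (-0.50). How far each setting's own change in power or scale accounts for these shifts was not tested.

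With the replicate number as a block, the counts between genotypes were 1, 1, 0 and 2 at the 4 times, 14, 16 and 6 for the w1118 steps and 11, 11 and 0 for the brat steps, and 0, 1 and 0 for the interactions in the order of the steps, with 5 for the added one.

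Replicates of a genotype were left out singly, which took 1 sample from a comparison between genotypes and that replicate at all 4 times from the other fits. This gave 1 to 1, 0 to 1, 0 to 0 and 1 to 2 calls between genotypes at the 4 times, 7 to 14, 10 to 15 and 3 to 6 for the w1118 steps, 8 to 11, 0 to 9 and 0 to 0 for the brat steps, 0 to 0, 0 to 1 and 0 to 1 for the interactions and 2 to 4 for the added one. The medians ran from -0.19 to -0.07, from -0.45 to -0.35, from -0.42 to -0.38 and from -0.38 to -0.26 between genotypes, from -0.02 to 0.16, from -0.39 to -0.29 and from -0.12 to -0.06 for the w1118 steps, from -0.51 to -0.37, from -0.42 to -0.36 and from -0.09 to -0.03 for the brat steps, and from -0.36 to -0.24, from 0.01 to 0.12, from -0.01 to 0.22 and from 0.24 to 0.51 for the interactions, the added one last.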
